A study of Mus musculus with 4 samples.

Results

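The response of the mouse lung to inhaled antigen was described in the Pla2g3+/+ arm of an allergic airway study, as the array labelled Pla2g3+/+ antigen challenged minus the array labelled Pla2g3+/+ control. These are 2 of the 4 samples, and they were chosen by their labels alone. Each sample was whole-lung total RNA pooled from 4 samples and hybridised with Cy3 to 1 one-colour Agilent 4x44K mouse array, from 200 ng of RNA. With 1 pool on each side, no spread between mice was measured and no test was possible. The other 2 arrays came from lungs labelled Pla2g3-/-, control and antigen challenged, and enter below only as values set beside the Pla2g3+/+ pair.

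Per the labels' protocols, mice were sensitised by intraperitoneal injection of 10 µg of ovalbumin (OVA) with 1.3 mg of aluminium hydroxide, given on day 0 and again on day 14. They then breathed an aerosol of 1% OVA for 30 min a day on days 26, 27 and 28, with lungs harvested 48 h after the final exposure. The same text is attached to control and challenged samples, so the sources used here do not say what the control mice received, nor their strain background, age or sex. In the text below, "control" and "challenged" are the Pla2g3+/+ pair unless another genotype is named.

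In sensitised mice, inhaled antigen is known to drive a type 2 inflammation of the airways. T helper 2 cells and innate lymphoid cells release IL-4, IL-5 and IL-13, eosinophils enter the lung, and IL-13 acting through STAT6 turns airway secretory cells into goblet cells that make gel-forming mucins. Macrophages and epithelium exposed to IL-4 and IL-13 make chitinase-like and resistin-like proteins, arginase and the chemokines that draw in more type 2 cells.

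These arrays have 2 deposited sources, which were kept apart: the scanner output of each array, and the authors' table of processed values. A level is a log2 value. In the scanner files it is relative to the array's 75th percentile, and in the value table it is relative to 1, which lies at each column's 75th percentile to within rounding. A difference is the challenged level minus the control level, and levels of different probes were not compared. Same-named samples do not carry equal measurements in the 2 sources. Across probes, those below background included, the levels of arrays within a source had r of 0.986 or more. Arrays of different sources had r between 0.915 and 0.923 whatever their names. The control scanner array had r = 0.919 with its own column of the table and 0.922 with the Pla2g3-/- challenged column. Whether both sources come from the same hybridisations was not tested. Lung markers differed most plainly. Ager, a defining gene of alveolar type I cells, stood at -4.84 in control and -5.34 in challenged lung in the scanner files, and at 3.63 and 3.60 in the value table. Cdh5, the adherens junction cadherin of endothelium, stood at -5.08 and -5.04 in the scanner data and at 3.14 and 3.04 in the table. Krt5, a keratin of basal epithelial cells, had the opposite pattern, with 5.65 and 5.68 in the scanner data and -4.00 and -3.82 in the table. These levels set side by side come from tables scaled separately. Every result is therefore given by source, and why the sources differ was not tested.

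Pla2g3 encodes the group III secreted phospholipase A2, the targeted gene. Its scanner level was -3.05 in Pla2g3+/+ control, -2.83 in Pla2g3+/+ challenged, 0.14 in Pla2g3-/- control and 1.07 in Pla2g3-/- challenged lung. In the value table the order was the same, with -4.66, -4.60, -0.20 and 0.06. Both arrays labelled Pla2g3+/+ were thus the lower pair in each source. The sources used here do not say which part of the gene was deleted, so these probes check nothing about the labels. Whether the genotype labels are exchanged cannot be told from them, and each genotype named below is the labelled one. Between control and challenged lung the Pla2g3 difference was 0.22 ± 0.20 in the scanner files, where the error is the array software's reading error of the spots and covers no mice. The table gave 0.06. A second Pla2g3 probe gave -1.62 and 0.32.

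The scanner files measured 25700 genes, of which 484 (1.88%) were higher by 2-fold or more in challenged lung and 434 (1.69%) at least 2-fold lower, together 3.57%. A gene counts as measured where either array's probe was above background, and where it was above background on 1 array only its fold is a lower bound. Of the higher genes 285 were above background on both arrays and 199 were bounds, and of the lower genes 272 and 162. At least 4-fold differences numbered 92 higher and 65 lower. The value table gave 441 higher (1.73%) and 161 lower (0.631%) of 25499 measured genes, together 2.36%, with 108 and 30 at 4-fold or more. The median difference over all measured genes was -0.03 in the scanner data and 0.01 in the table, and 90.1% and 94.1% of genes lay within 1.5-fold.

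**Figure D1:**
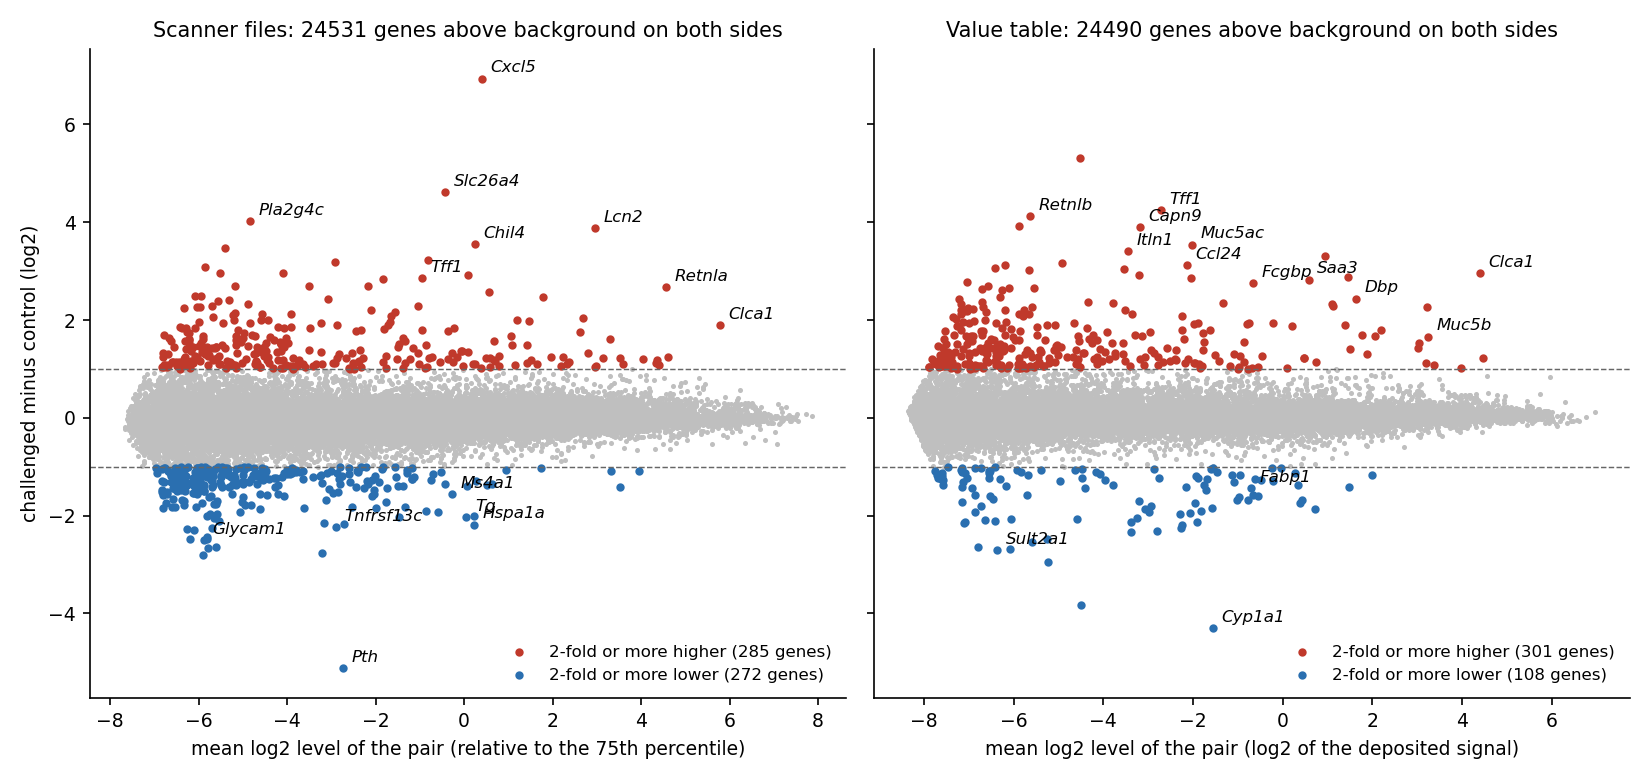
Difference between challenged and control lung (vertical, log2) against the mean level of each gene (horizontal, log2) for genes above background on both arrays, scanner files and value table side by side, with 1 array a side. Genes at least 2-fold higher (285 and 301) or lower (272 and 108) are coloured, and they lie mostly at low levels.

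The called genes were more frequent among dim ones. Over 4 equal bins of mean level, from the dimmest to the brightest, 4.68%, 2.43%, 1.39% and 0.587% of genes were past 2-fold in the scanner files, and 3.74%, 1.78%, 0.800% and 0.359% in the table. The array software's reading error of a scanner difference had a median between 0.204 and 0.247 across these bins. Probes spotted 10 times on each array repeated closely, with a median SD of the difference of 0.048 over 336 probes in the scanner files and 0.045 over 346 probes in the table. Both errors cover the array and not the mice.

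Of the 24194 genes measured in both sources, 53 were at least 2-fold higher in both, which is 16.2% of the 328 higher in the scanner files and 17.8% of the 297 higher in the table. Of these 53, 10 had the Pla2g3+/+ challenged array highest and the Pla2g3-/- control array second in both sources. These 10, Dsg4 among them, were dim, with scanner levels in challenged lung between -5.84 and -3.22. That order held for 4.42% of genes above background on all 4 scanner arrays and 3.90% in the table. These shares are of single sources and take in any size of difference, so they are no like measure for the 10, and why the 10 have this order was not tested. Dsg4 was above background only on the Pla2g3+/+ challenged array in both sources. Its order among the other arrays therefore ranks values not above background. Another 15 of the 24194 genes were lower in both, 5.15% of the 291 lower in the scanner files and 15% of the 100 lower in the table. Only Sult2a4 among them has an ordinary gene symbol, and the rest carry transcript, clone, accession or predicted names. The sources passed 2-fold in opposite directions for 16 genes. Of these, 4 were higher in the scanner files and lower in the table and 12 the reverse, among them Ccl24, Ccl8, Dbp and Cd5l. Genes opposite in sign but below 2-fold in a source are not in this count. Cd5l, an apoptosis inhibitor secreted by macrophages, differed by -1.85 in the scanner data and 2.91 in the table. Across the 23240 genes above background on both arrays in both sources, the differences had r = 0.19, a description over genes that share their arrays.

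**Figure D2:**
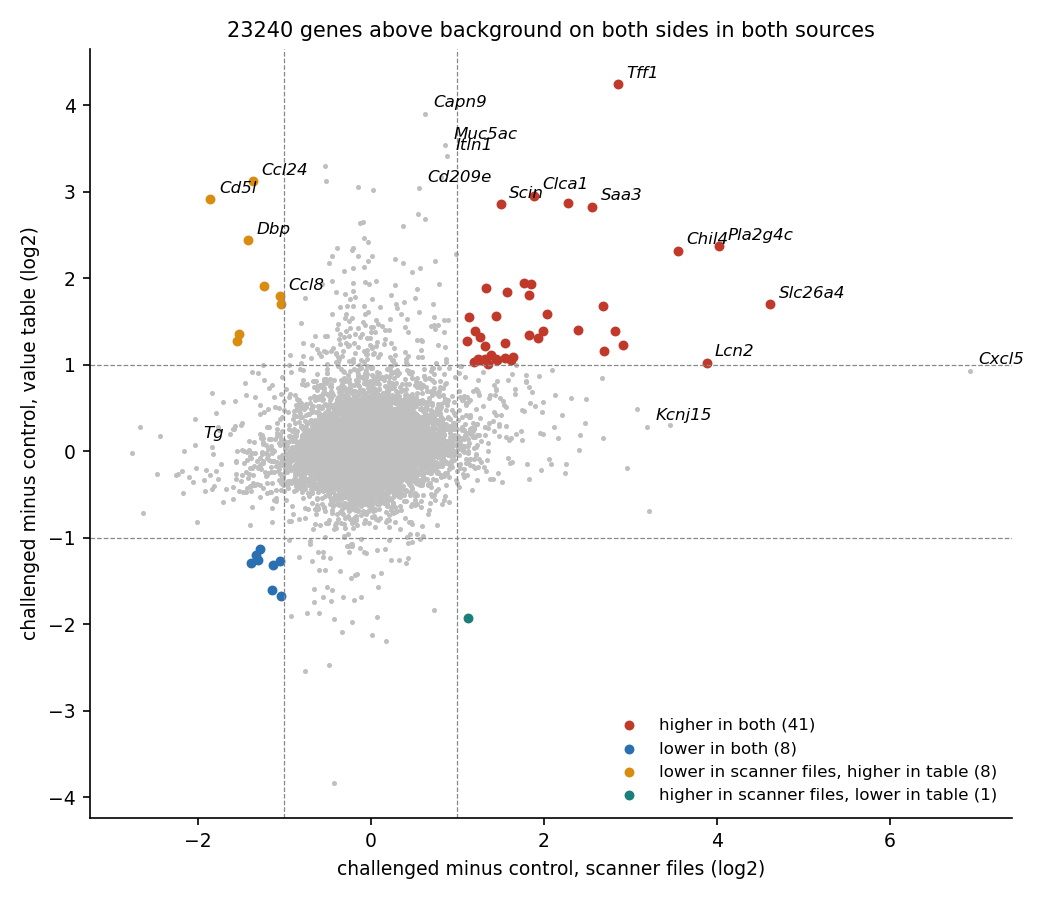
Difference between challenged and control lung (log2) in the value table (vertical) against the scanner files (horizontal), 1 point per gene above background on all arrays of the pair in both sources. Tff1, Chil4, Pla2g4c and Slc26a4 lie at the upper right, Ccl24, Cd5l and Dbp at the upper left, and Cxcl5 at the far right with a table difference of 0.93.

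The epithelial mucus genes were among the largest differences shared by both sources. Tff1, a trefoil peptide secreted with mucin, stood at -2.38 in control and 0.48 in challenged lung in the scanner files, 7.26-fold higher, and its 2 probes differed by 2.79 and 2.86. In the table it was at -4.83 in control and -0.58 in challenged lung, 19-fold higher, with probes at 4.25 and 4.35. Slc26a4 (pendrin), an apical anion exchanger of airway epithelium, stood at -2.74 and 1.88, 24.6-fold higher, and in the table at 0.91 and 2.61, 3.25-fold higher. Clca1, a secreted goblet cell protein, was 3.72-fold higher in the scanner files, at 4.83 and 6.73, and 7.77-fold higher in the table, at 2.93 and 5.89. Retnlb, the goblet cell resistin-like molecule, was above background only in challenged lung in the scanner files, at least 7.58-fold higher, and was at -7.69 in control and -3.57 in challenged lung in the table, 17.4-fold higher. With normexp background and quantile normalisation in place of the percentile scaling, its scanner difference was 0.93, below 2-fold.

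Of 18 measured genes for mucins and secreted mucus proteins, 3 were called higher and none lower in the scanner files, with a median difference of 0.41. The table called 10 of 18 higher and none lower, with a median of 1.13. Muc5ac is the gel-forming mucin of surface goblet cells. Its scanner levels were -2.27 and -1.42, 1.81-fold apart, while its table levels were -3.78 and -0.24, 11.6-fold apart. Muc5b, the other main airway gel-forming mucin, differed by 0.30 in the scanner files and was 3.17-fold higher in the table. Fcgbp, a mucus-binding protein, gave 0.55 and 2.75, and Tff2 gave 0.99 and 2.28. Itln1, a lectin of goblet cells, stood at 3.09 and 3.98 in the scanner files, a difference of 0.88, and at -5.15 and -1.73 in the table, 10.7-fold higher.

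Goblet cell regulators and secretory machinery had 2 of 15 members higher in the scanner files and 5 of 15 in the table, with none lower and medians of 0.40 and 0.39. Scin, an actin-severing protein of secretory cells, was higher in both, at -2.22 and -0.71 in the scanner data and at -3.48 and -0.62 in the table, 2.84-fold and 7.25-fold. Agr2, a disulfide isomerase needed for mucin folding, differed by 0.28 and 1.92. Spdef, the transcription factor that drives goblet cell differentiation, differed by 0.42 and 0.94, below 2-fold in each source. Capn9, a calpain of mucus-secreting epithelium, was 15-fold higher in the table, at -5.14 and -1.23, and differed by 0.63 in the scanner files.

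Chitinase-like and resistin-like genes were the list with the highest scanner median. All 11 measured members were above 0 there, 7 were called higher, and the median was 1.99. The table called 4 of 11 higher, with a median of 0.75. Chil4 (Ym2), a chitinase-like protein of alternatively activated macrophages and airway epithelium, was at -1.52 in control and 2.04 in challenged lung in the scanner files, 11.8-fold higher, and at -0.05 and 2.27 in the table, 5-fold higher. Retnla, which is IL-4-inducible in macrophages and epithelium, was at 3.22 in control and 5.90 in challenged lung, 6.39-fold higher, and in the table at 5.55 and 6.4, a difference of 0.84. Chil3 (Ym1) was 5.58-fold higher in the scanner files, and its table difference was 0.33. Chil1, an IL-13-regulated chitinase-like protein, differed by 1.99 and 0.45. Chia1, the true acidic chitinase, ran the other way round, with 0.23 in the scanner data and 1.53 in the table. Chil3 and Chil4 are closely similar neighbours, so a probe of either could read both.

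The chemokines of eosinophils and T helper 2 cells differed between the sources in direction for some members. Ccl17, a ligand of CCR4 made by dendritic cells and macrophages, was higher in both: -3.51 and -0.82 in the scanner files, 6.45-fold, and 1.23 and 2.91 in the table, 3.21-fold. Ccl1, a CCR8 ligand, was above background only in challenged lung in the scanner files, at least 15.8-fold higher (a difference of 1.76 with normexp and quantile), and 3.06-fold higher in the table, at -5.13 and -3.52. Ccl11 (eotaxin) gave 0.39 and 1.73. Ccl24 (eotaxin 2) stood at -4.01 in control and -5.36 in challenged lung in the scanner files, a difference of -1.35 (-0.78 with normexp and quantile), and at -3.70 and -0.57 in the table, 8.75-fold higher. Ccl8, a CCR8 and CCR2 ligand of macrophages, likewise gave -1.05 (-0.57 with normexp and quantile) in the scanner data and 1.79 in the table. Over the list, 2 of 10 were higher and 2 lower in the scanner files, with a median of -0.13, and 6 of 12 were higher and none lower in the table, with a median of 0.67.

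Promoter windows are shown for Chil4, Ccl17 and Lcn2 because these genes were higher in both sources and their windows hold a palindrome of the kind STAT proteins bind. Slco1a5 and Fcamr met the same conditions, and the 3 shown were chosen after their values were seen, as genes with a known part in airway inflammation. STAT6, activated by IL-4 and IL-13, prefers TTC and GAA with 4 bases between them, and other STAT proteins prefer 3 bases between them. Both motifs were searched on both strands in RefSeq promoters of GRCm38.p6, in the 250 bases before each start. The letters in capitals are the match. The Chil4 window is chr3:106219651-106219699, minus strand, with the match 200 bases before the start. The Ccl17 windows are chr8:94810279-94810328 and chr8:94810334-94810382, plus strand, at 154 and 99 bases before the start. The Lcn2 window is chr2:32387866-32387915, minus strand, at 156 bases before the start.
Chil4: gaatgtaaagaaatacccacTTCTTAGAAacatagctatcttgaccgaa
Ccl17, upstream match: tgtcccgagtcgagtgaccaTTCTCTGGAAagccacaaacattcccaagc
Ccl17, downstream match: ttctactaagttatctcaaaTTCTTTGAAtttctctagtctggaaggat
Lcn2: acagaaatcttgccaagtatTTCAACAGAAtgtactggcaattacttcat
Chil4 and the downstream Ccl17 window carry the form with 3 spacer bases, and the upstream Ccl17 and Lcn2 windows the form with 4. Over all 32851 windows, 5.85% hold the form with 4 spacer bases and 7.02% the form with 3. Among the genes higher in challenged lung that have a window, the form with 4 was in 19 of 249 (7.63%) for the scanner files, beside 5.96% of the 15269 measured genes with a window. For the table it was in 23 of 225 (10.2%), beside 5.99% of 15170. Genes lower in challenged lung held it in 15 of 219 (6.85%) for the scanner files and 5 of 50 (10%) for the table. The form with 3 was in 8.84% of higher and 9.59% of lower scanner genes, beside 7.54% of those measured, and in 8.44% of higher and 10% of lower table genes, beside 7.46%. Among the 34 genes higher in both sources that have a window, each form was in 3 (8.82%). A match is a run of letters, not a shown binding site.

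Type 2 cytokine genes were dim. Il13 was at background in control lung in the scanner files and above it after challenge, at least 4.56-fold higher, and was 3-fold higher in the table, at -6.77 and -5.18. Il5, the eosinophil growth factor, was above background only in challenged lung in the scanner files, at least 6.78-fold higher, and its table difference was 0.42. Il4 differed by 0.51 and 0.34. Of the list, 2 of 9 were higher in the scanner files with a median of 0.51, and 3 of 10 in the table with a median of 0.44, none lower. With normexp background and quantile normalisation the scanner differences of Il13 and Il5 were 0.78 and 1.03 and the list's median 0.21. Il21 and Il3 were the other members called higher in the table, with 1.38 and 1.18. Among 20 receptors and signalling genes of the type 2 pathway, the feedback inhibitors Socs3 (1.06), Cish (1.02) and Socs1 (1.01) were just past 2-fold in the scanner files, and all 3 were just below it with normexp and quantile. No member was called in the table.

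**Figure D3:**
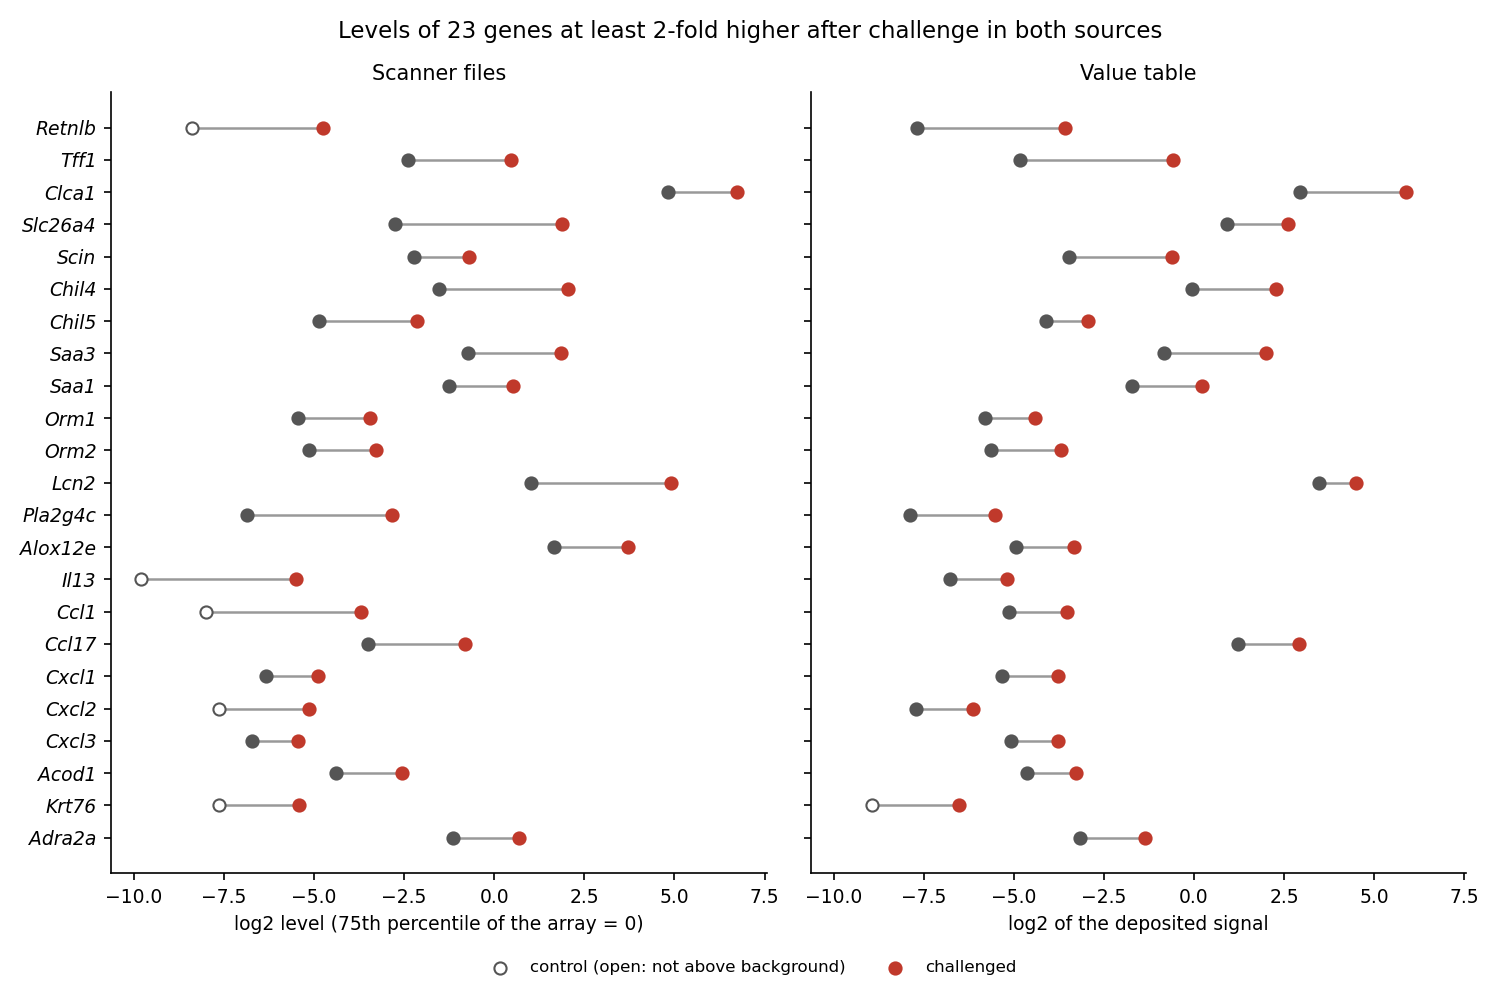
Level (log2, horizontal) of selected genes in control and challenged lung, 1 array each, joined by a line, with the scanner files and the value table in separate panels. Open points were not above background, and Tff1, Slc26a4, Chil4, Saa3 and Ccl17 lie higher in challenged lung in both panels.

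Neutrophil and monocyte attractants had larger differences in the scanner files. Cxcl5, a CXCR2 ligand made by lung epithelium, had the largest difference of all genes there, at -3.06 and 3.87, a difference of 6.93 and a fold of 122. Its table levels were -1.72 and -0.78, a difference of 0.93. Cxcl1, another CXCR2 ligand, was higher in both, at -6.33 and -4.88 in the scanner data and -5.33 and -3.76 in the table, 2.74-fold and 2.96-fold. Cxcl3 gave 1.27 and 1.32, and Cxcl2 was higher by at least 5.7-fold in the scanner files and differed by 1.57 in the table. Neutrophil chemokines and their receptors had 7 of 12 higher and none lower in the scanner files, with a median of 1.09. The table called 3 of 12 higher, with a median of 0.06. With normexp background and quantile normalisation the scanner differences of Cxcl1 and Cxcl2 were 0.66 and 0.58, and the list's median was 0.49. Of the monocyte chemokines, 5 of 10 were higher in the scanner files. Among them Ccl3 differed by 2.43, and Ccl7 and Ccl12 by 2.13 each (1.14 and 1.5 with normexp and quantile). The table called 1 of 11, Ccl9, at 0.79 and 2.19.

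Of 21 neutrophil genes, 10 were called higher and none lower in the scanner files, 8 lay below 0, and the median was 0.93 (0.34 with normexp and quantile). S100a8 and S100a9, the calprotectin subunits that fill neutrophil cytosol, stood at 0.22 and 1.88, and at 1.75 and 3.51. Their table differences were 0.66 and 0.47. The table called 1 of 21 neutrophil genes, Lcn2, and the list's median there was 0.27. The summed level of the list was 7.91 in control and 8.15 in challenged lung in the scanner files, and 6.70 and 7.09 in the table. In whole lung, fewer or more cells of a type and less or more RNA per cell cannot be told apart.

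Eosinophil genes had few members past 2-fold, and their medians had opposite signs in the sources. Epx, eosinophil peroxidase, was not above background on either array of the pair in either source. Prg2, the major basic protein, stood at -2.09 and -2.10 in the table, and was above background only in control lung in the scanner files, where its difference was -1.25 (-0.29 with normexp and quantile). The scanner files called 0 of 11 eosinophil genes higher and 2 lower, with a median of -0.21. Over all measured genes there, 1.88% were higher and 1.69% lower. The table called 2 of 12 higher, Alox15 and Cebpe, and none lower, with a median of 0.21. Its shares over all measured genes were 1.73% and 0.631%. The Pla2g3-/- pair had a table difference of 2.66 for Prg2.

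Alternatively activated macrophage genes had none of 23 called and a median of -0.08 in the scanner files, while the table had 4 of 23 higher, 21 above 0 and a median of 0.47. Retnla, Chil3 and Chil4, also made by such macrophages, were counted with the chitinase-like and resistin-like genes and are not in this list. All of them were more than 2-fold higher in the scanner files. Arg1, the arginase of that state, was at -3.98 in control and -2.29 in challenged lung in the table, 3.21-fold higher, and differed by -0.28 in the scanner files. Cd209e, a C-type lectin, was 8.25-fold higher in the table and differed by 0.56 in the scanner files. Inflammatory macrophage genes had 4 of 17 higher and 1 lower in the scanner files and 3 of 20 higher in the table, with medians of 0.280 and 0.275. Il1b was at -3.21 in control and -0.99 in challenged lung there, 4.64-fold higher, with a table difference of 0.42. Acod1, the itaconate-making enzyme of activated macrophages, was higher in both, 3.56-fold and 2.54-fold. Marco, a scavenger receptor, was lower in the scanner files, at 1.22 and -0.79, a difference of -2.01. Mast cell genes had none of 19 called in the scanner files and 1 of 17 in the table, the mast cell protease Mcpt2 (1.77).

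Acute phase genes were called higher in both sources, with 5 of 22 higher in the scanner files (median 0.56), 5 of 24 in the table (median 0.53) and none lower. Saa3, the serum amyloid A of macrophages and epithelium, stood at -0.72 and 1.84 in the scanner data and -0.83 and 2.0 in the table, 5.92-fold and 7.1-fold higher. Saa1 was 3.42-fold and 3.85-fold higher. Orm1 and Orm2, the acid glycoproteins, gave 1.99 and 1.85 in the scanner data (1.19 each with normexp and quantile) and 1.39 and 1.93 in the table. Saa1 and Saa2, and Orm1 and Orm2, are near-identical pairs whose probes may share signal. Lcn2, the siderophore-binding lipocalin of neutrophils and epithelium, was at 1.02 in control and 4.90 in challenged lung in the scanner files, 14.8-fold higher, and at 3.46 and 4.49 in the table, 2.04-fold higher. It is not in the acute phase list. The neutrophil, IL-17 and glucocorticoid-response lists all hold it, so their calls are not separate for this gene.

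Interferon-response genes had small differences of one sign in the scanner files. All 30 measured members lay above 0 there, with a median of 0.52, and 2 passed 2-fold, the CXCR3 ligand Cxcl10 (1.8) and the oligoadenylate synthetase-like Oasl1 (1.26). In the table the same list had a median of -0.05 and 1 member past 2-fold.

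Many lymphocyte genes were lower in the scanner files. Of 19 B cell and plasma cell genes 8 were called lower and none higher, with a median of -0.96. Ms4a1 (CD20) was at 0.50 in control and -1.06 in challenged lung, 2.95-fold lower. Cd79b, a subunit of the B cell receptor, was at 1.31 in control and -0.05 in challenged lung. All 24 T cell genes were below 0, 6 were called lower, and the median was -0.55. Cd3d, part of the T cell receptor complex, differed by -1.26, and Lef1, a factor of naive T cells, by -1.35. In the table Ms4a1 differed by -0.32. The B cell list there had 1 of 20 higher and a median of -0.11, and the T cell list had none of 25 called and a median of 0.16. With normexp background and quantile normalisation the scanner medians were -0.41 for the B cell list and -0.44 for the T cell list. Of 20 lymphocyte chemokines and receptors, 4 were lower in the scanner files, the homing receptors Cxcr5 (-1.42), Ccr7 (-1.24), Ccr6 (-1.21) and Cxcr3 (-1.18). Cxcl10 and Ccl28 (1.24) were higher, and the list's median was -0.11. The summed level of the B cell list was 5.45 in control and 5.97 in challenged lung, against the direction of its median, and that of the T cell list was 3.33 and 2.86. In the Pla2g3-/- pair the scanner differences were 0.17 for Ms4a1 and -3.24 for Cd3d, beside a median of -3.39 for immature thymocyte genes there, whose part in the Cd3d value was not tested.

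**Figure D4:**
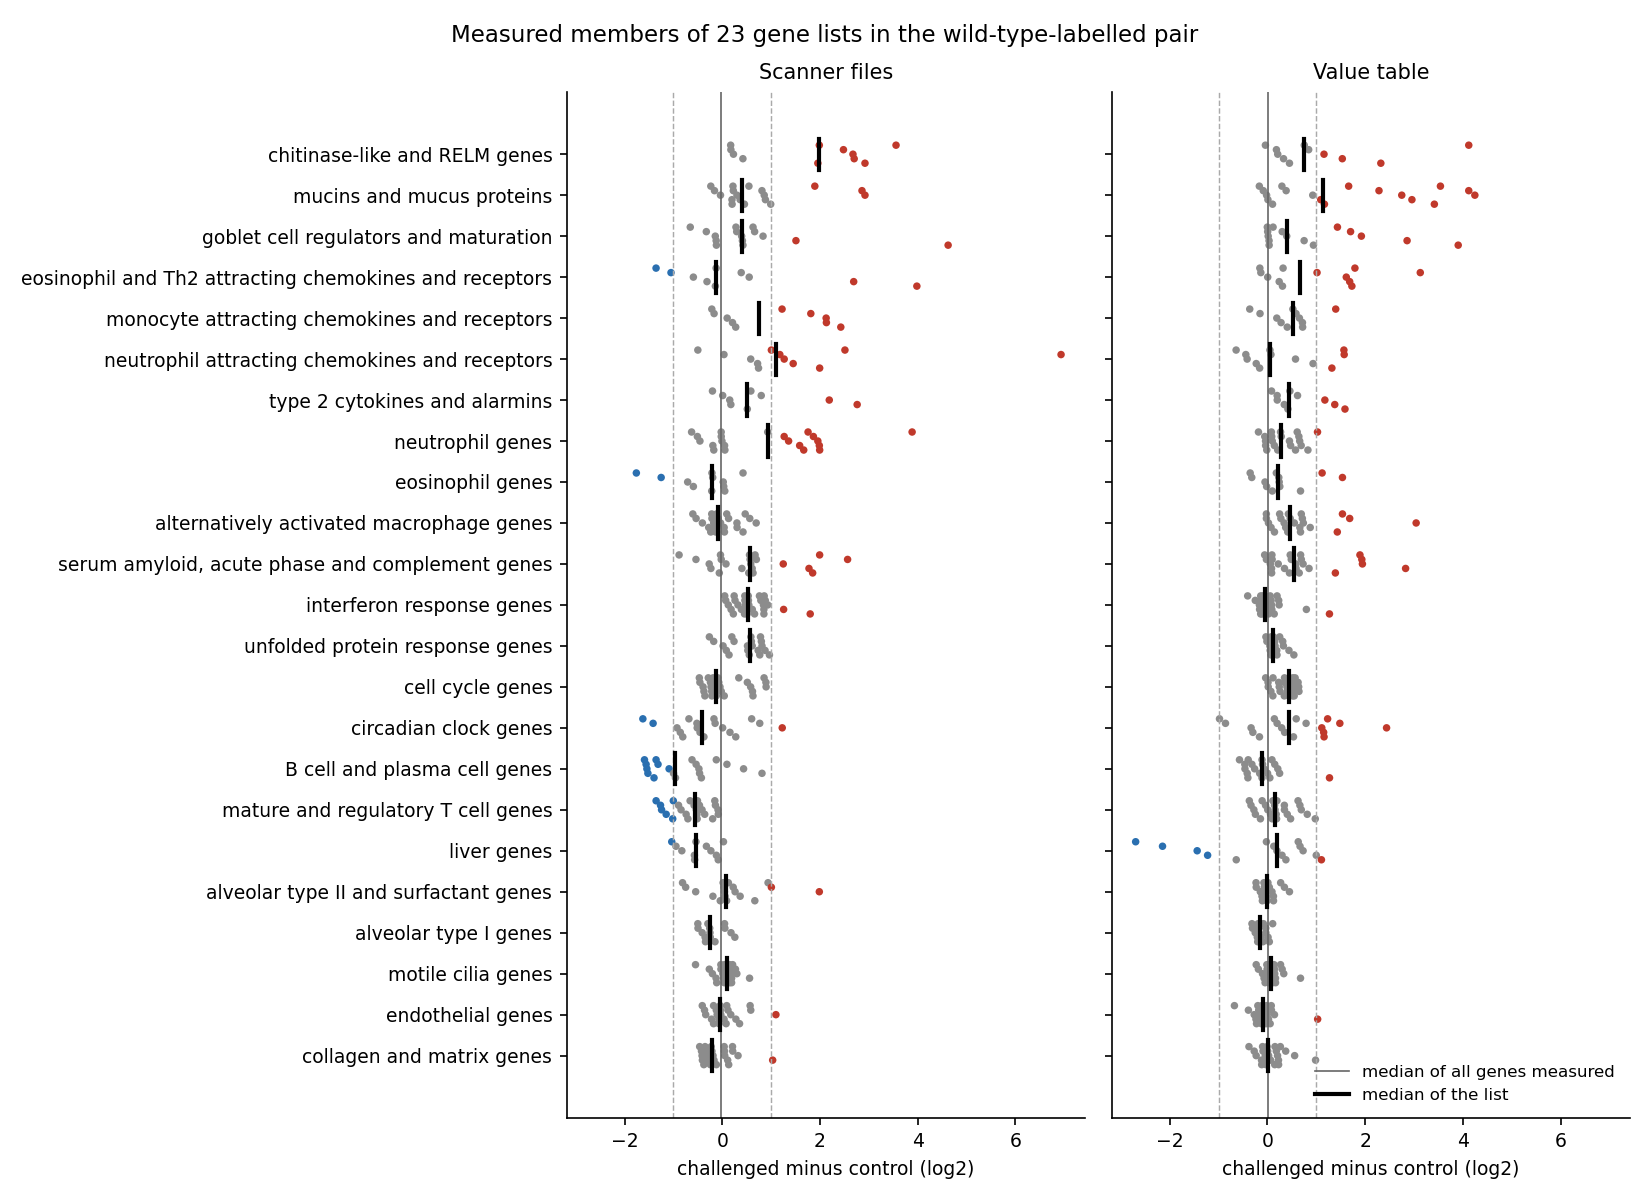
Difference between challenged and control lung (log2, horizontal) for the members of selected gene lists, each point a measured gene and each bar the list's median, scanner files and value table in separate panels. The chitinase and resistin-like list lies above 0 in the scanner files, and the B cell list lies below 0 there and near 0 in the table.

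Several of the largest differences of a source were below 2-fold in the other. Slfn4, a schlafen of myeloid cells, was 11-fold higher in the scanner files, Lipf, gastric lipase, 9.33-fold and Kcnj15, a potassium channel, 9.14-fold. Their table differences were 0.30, -0.70 and 0.28. In the table, Fbp1, a gluconeogenic phosphatase of lung macrophages, was at -0.69 in control and 2.61 in challenged lung, 9.85-fold higher, and its scanner difference was -0.53. Dnase1, a secreted nuclease, was 8.1-fold higher in the table, at -7.16 and -4.14, with 0.03 in the scanner files. Pdk4, a fasting-regulated kinase, and Trim69 were 4.07-fold and 5.4-fold lower in the scanner files, and their table differences were 0.37 and 0.18. With normexp background and quantile normalisation Trim69 differed by -0.81, Slfn4 by 1.67 and Kcnj15 by 2.57.

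The deleted gene encodes a phospholipase A2, an enzyme class that frees arachidonic acid for eicosanoid synthesis. A few genes of its own family and pathway were past 2-fold. Over all measured genes, 1.88% were higher and 1.69% lower in the scanner files, and 1.73% and 0.631% in the table. Pla2g4c, a cytosolic phospholipase A2, was higher in both sources, at -6.86 and -2.83 in the scanner files, 16.3-fold, and at -7.88 and -5.51 in the table, 5.17-fold. Its scanner difference was 1.94 with normexp and quantile, in place of 4.03. It was the 1 member of 22 called higher in the scanner files. Pla2g2d, a secreted enzyme of dendritic cells, was the 1 called lower, with a difference of -1.20 (-0.66 with normexp and quantile), and its table difference was 0.28. The table also called Pla2g4d (6.46-fold) and Pla2g10 (3-fold) among 23 members. Alox12e, an epidermal-type 12-lipoxygenase, was higher in both, 4.11-fold and 3-fold. Alox15, the 12/15-lipoxygenase of macrophages and eosinophils, differed by 0.43 in the scanner data and 1.54 in the table. Of 24 genes for prostaglandin and leukotriene synthesis and their receptors none were called in the scanner files, and 1 of 26 in the table, Ptgdr.

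Structural lung genes mostly stayed within 2-fold. Alveolar type II genes had 2 of 18 higher in the scanner files and none called in the table, with medians of 0.07 and -0.01. Alveolar type I genes had none of 14 called in the scanner files, with medians of -0.25 and -0.15. None of 24 cilia genes were called in either source, with medians of 0.09 and 0.07. Mmp12, the macrophage elastase, was 4.61-fold higher in the table and differed by 0.75 in the scanner files. The metalloproteinase inhibitor Timp1 (1.03 and 0.99, and 0.98 in the scanner files with normexp and quantile) and the matrix-bound Timp3 (-1.09 in the scanner files) lay near the 2-fold line.

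No measured member of the unfolded protein response and cell cycle lists passed 2-fold in either source. The unfolded protein response list had 18 of 20 members above 0 in the scanner files, with a median of 0.57 and none past 2-fold. Its largest were the endoplasmic reticulum chaperone Hyou1 (0.97) and Manf (0.88), while the table median was 0.12. Cell cycle genes ran the other way, with 28 of 29 above 0 in the table, a median of 0.45 and none called, and 9 of 28 above 0 in the scanner files with a median of -0.12. Circadian clock genes were of opposite sign in the sources, with a median of -0.42 in the scanner data and 0.44 in the table. Dbp, an output gene of the clock, was at 4.23 in control and 2.81 in challenged lung in the scanner data and at 0.43 and 2.87 in the table. Whether the hour of harvest differed was not tested.

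Some genes of tissues outside the lung were among the lowest, while the medians of such gene lists had both signs in each source. Pth, parathyroid hormone, stood at -0.18 in control and -5.30 in challenged lung in the scanner files, 34.8-fold lower and the lowest of all genes (a difference of -4.02 with normexp and quantile). Tg, thyroglobulin, stood at 1.07 and -0.96, 4.09-fold lower. The summed level of the 12 parathyroid and thyroid genes on the array, measured or not, was 2.46 and 1.15. In the table, where none of 10 measured were called, it was -2.14 and -2.02. Over that list the scanner files called 1 higher, the iodide transporter Slc5a5 (1.83, and 0.51 with normexp and quantile), and 4 lower, with 5 of 11 above 0 and a median of -0.01. The part of such tissue in the pools was not tested. Among named genes of the table the lowest was Cyp1a1, a dioxin-inducible cytochrome P450, at 0.60 and -3.70, 19.7-fold lower. The bounds Apol7d and Cyp2c50 were at least 8.94-fold and at least 4.58-fold lower. The sulfotransferases Sult2a1 and Sult2a6 were 6.48-fold and 4.43-fold lower, and Sult2a4 was lower in both sources, at least 4.17-fold and at least 3.2-fold, though its scanner difference was -0.59 with normexp and quantile. Fabp1, a liver and gut lipid carrier, was 2.71-fold lower in the table. Liver genes as a list had 1 higher and 4 lower of 15 in the table, with a median of 0.19, and 0 higher and 1 lower of 11 in the scanner files, with a median of -0.54. Hspa1a, the inducible heat shock protein, was 4.54-fold lower in the scanner files and differed by -0.23 in the table.

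The pair labelled Pla2g3-/- gave larger counts. In the scanner files 982 genes (3.87%) were higher and 854 (3.37%) lower of 25361, together 7.24%. The table counts were 652 (2.62%) and 192 (0.77%) of 24922, together 3.39%. Of the 484 genes higher in the Pla2g3+/+ scanner pair, 196 (40.5%) were also at least 2-fold higher in the Pla2g3-/- pair, which is 20% of the 982 there. Of the 434 lower, 88 (20.3%) were lower in both, which is 10.3% of the 854. The table gave 131 (29.7% of 441, 20.1% of 652) and 18 (11.2% of 161, 9.38% of 192). Genes past 2-fold in both pairs but in opposite directions numbered 59 (higher in the Pla2g3+/+ pair) and 53 (lower in it) in the scanner data. The table had 21 and 9. Genes opposite in sign but below 2-fold in the Pla2g3-/- pair are not in these counts. Across genes the differences of the 2 pairs had r = 0.40 over 23585 genes and 0.39 over 23717, a description with 1 array a group. Cxcl5 (6.93 and 6.56), Slc26a4 (4.62 and 4.19) and Lcn2 (3.89 and 3.36) were close in the Pla2g3+/+ and Pla2g3-/- scanner pairs. Chil4 and Chil3 were not, with 3.56 and 2.48 in the Pla2g3+/+ pair and 0.09 and 0.39 in the Pla2g3-/- pair, where Chil4 stood at 2.46 in control and 2.55 in challenged lung. The table gave another picture, with 2.32 and 2.27 for Chil4, 0.93 and -0.18 for Cxcl5, 1.03 and 0.24 for Lcn2, and 1.70 and 1.86 for Slc26a4. No difference between genotypes was tested.

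**Figure D5:**
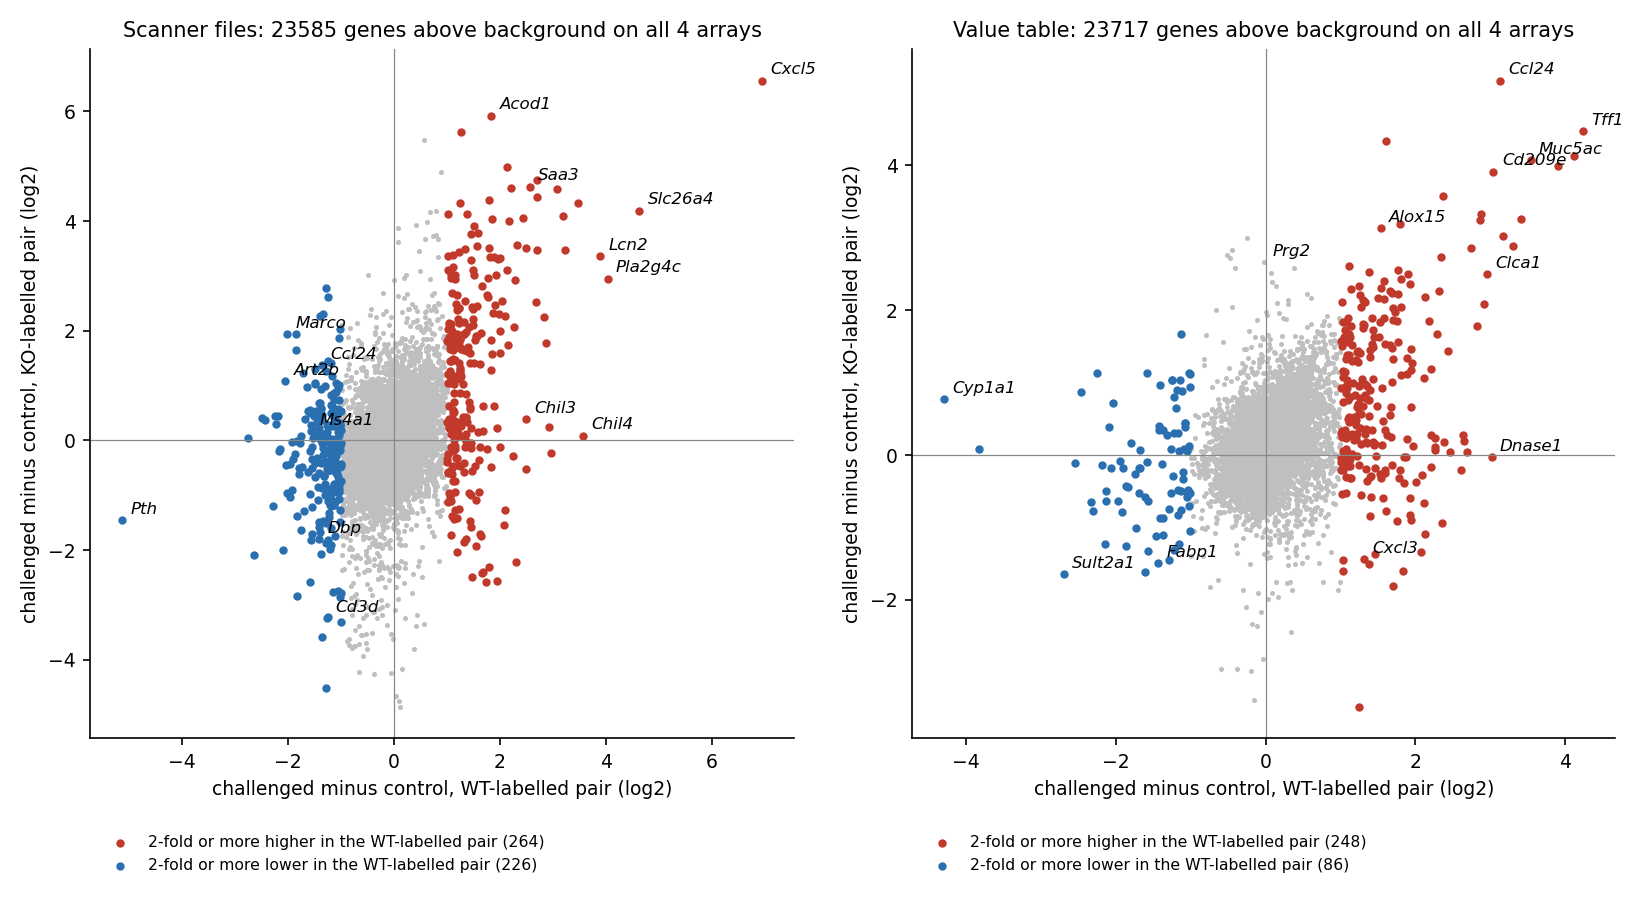
Difference between challenged and control lung (log2) in the pair labelled Pla2g3-/- (KO-labelled, vertical) against the pair labelled Pla2g3+/+ (WT-labelled, horizontal), scanner files and value table side by side, 1 array a group. Genes past 2-fold in the Pla2g3+/+ pair are coloured, and many of these lie near 0 on the vertical axis.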

How the data were processed

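Per the labels' protocols, whole-lung RNA pooled from 4 samples was labelled with Cy3 and hybridised to 1 Agilent 4x44K array per group, all on 1 slide. Arrays were extracted with Agilent Feature Extraction 11.5.1.1, per the submitters' processing notes. The scanner files hold the deposited processed intensity of each spot on a linear scale, background-subtracted per the file headers. In the authors' value table each probe has a linear signal that was deposited already scaled, by a method the sources used here do not give. Log2 values were computed here from both deposited sources.

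From the scanner files, control spots and 336 outlier-flagged spots were left out, log2 processed intensity was centred on each array's 75th percentile over non-control spots, and repeat spots were averaged over 39429 probes. Value table rows were matched to spots by feature number. Probes were named through RefSeq by accession (28747) or symbol (2195), and 8487 kept the file's name. For a gene with several probes the brightest by mean level was taken. In the table a probe was above background at over 5 times the median of the negative control spots, a rule that gave the software's own call for 99.2% of spots in the scanner files. A gene above background on 1 array only was given a lower bound against the lowest detectable signal of the other array. The precision is limited by the number of arrays, 1 a side, and 81.3 to 81.9% of spots were above background in the pair, with none saturated.

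With 1 array a side, genes were called by a rule of size, 2-fold, with no test. Named genes are the 12 highest and lowest per source, 3 bounds per direction, 4 per gene list, up to 12 per direction shared by both sources, and Pla2g3. Ccr6, Cd79b, Cdh5, Chil3, Cxcr3, Epx, Fcgbp, Krt5, Muc5b, S100a9 and Spdef fall outside that rule and were chosen after their values were seen. The genes and the 59 lists were chosen with earlier results of these data known. Alternatives were normexp background (offset 50) with quantile normalisation, quantile or median scaling, other background filters, the mean of a gene's probes, other fold rules and the software's spot error. Taking a background probe's signal as measured was added after seeing the data. The calling step was run on simulated data and recovered 199 of 200 genes in the scanner setting (25688 genes) and 200 of 200 in the table setting (25080 genes), with 0 unchanged genes called. The simulated noise was set near the array software's reading error, below the spread of real differences among dim genes. The changed genes lay well above background and moved by more than 2-fold. These counts therefore check that the calling code works and give no rate of false calls in the real data. Tools were Python 3.11.15, pandas 2.3.3, numpy 2.4.6, scipy 1.17.1, matplotlib 3.10.9, R 4.3.3 and limma 3.58.1.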

Additional observations from a re-analysis of the deposited data

Results flagged for a closer look

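Several named genes were at least 2-fold apart in opposite directions in the pairs labelled Pla2g3+/+ and Pla2g3-/-, and with 1 array a group this difference between pairs was not tested. In the scanner files Marco was -2.01 in the Pla2g3+/+ pair and 1.94 in the Pla2g3-/- pair, Cd5l -1.85 and 1.94, and Ccl24 -1.35 and 1.37. In the table the pairs had the same sign for these genes, with -0.82 and -0.57 for Marco, 2.91 and 2.09 for Cd5l, and 3.13 and 5.17 for Ccl24. In the scanner files Art2b, a T cell ADP-ribosyltransferase, was -2.05 and 1.08. Glycam1, a mucin-like ligand of L-selectin, was -2.50 and 2.22, and Sbspon was -2.47 and 2.57, where the Pla2g3-/- values are bounds. Cntd1 was -3.03, a bound, and 1.65. In the value table Cxcl3 was 1.32 in the Pla2g3+/+ pair and -1.44 in the Pla2g3-/- pair, while its scanner differences were 1.27 and 5.62. With normexp background and quantile normalisation the Pla2g3+/+ scanner difference was -0.71 for Art2b, -0.78 for Ccl24, -0.88 for Glycam1, -0.80 for Sbspon and -0.82 for Cntd1, each below 2-fold.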

How the results depend on the processing

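Leaving out an array was impossible with 1 a side. No paired analysis was possible because each group has 1 array and the labels give no replicate numbers. No named gene past 2-fold changed sign under the alternatives run. Among list medians, 6 of 59 in the scanner files and 8 of 59 in the table changed sign, all within 0.043 of 0. Counts moved with background treatment and with the fold rule. In the scanner files (484 and 434) they were 134 and 58 with normexp and quantile, which moved the higher share of called genes from 52.7% to 69.8%, 285 and 272 requiring both arrays above background, and 875 and 789 with no background filter. At 1.5-fold they were 1195 and 1360, and at 3-fold 192 and 133. In the value table (441 and 161) they were 957 and 569 with no filter, 1045 and 451 at 1.5-fold, 189 and 62 at 3-fold, and 281 lower with background as measured. For both sources together (53 and 15) they were 178 and 63 at 1.5-fold, 17 and 2 at 3-fold, and 8 lower with all arrays above background. With normexp and quantile, 49 of the 111 named genes past 2-fold in the scanner files were under it. Dim genes limit all of these counts, and spread between mice was not measured.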

Other observations

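Of the 59 gene lists, 8 had a scanner median above 0.5 and 5 a table median above 0.5, with 3 and 0 below -0.5. Both sources left 39 lists within 0.25 of 0. The list medians were past 0.25 in size in both sources for 9 lists, of which 1, the circadian clock, had opposite signs. Dendritic cell genes had 1 of 18 lower in the scanner files and 3 of 20 higher in the table. Genes of the IL-17 pathway had 5 of 18 higher in the scanner files, among them Zc3h12a (1.78), a feedback nuclease, and Il1rn (1.08), the IL-1 receptor antagonist. In the table Il17a differed by 1.03 and Il17f by -1.07. Of 16 glucocorticoid-response genes, 1 was higher and 2 lower in the scanner files and 3 were higher in the table. Lcn2 was higher in both (3.89 and 1.03), Fkbp5 (1.23) and Zbtb16 (1.31) were higher in the table, and Pdk4 (-2.03) and Angptl4 (-1.90) were lower in the scanner files.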
